A study of Mus musculus with 6 samples.

Results

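The accessory subunits of Polycomb repressive complex 2 (PRC2) were followed as 7 genes, Jarid2 and Aebp2 of the PRC2.2 form and Mtf2, Phf1, Phf19, Epop and Lcor of the PRC2.1 form. They were chosen by symbol, through the Ensembl identifiers of the deposited table, and all 7 were found among its 22933 genes. All 7 also passed the minimum used for testing, a mean value of at least 10, and 6 had at least 10 reads per library on average (Phf1 had 9.83).

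Mouse embryonic stem cells with both Ezh2 alleles floxed (Ezh2 fl/fl) gave 6 libraries of ribosome-depleted total RNA. The 3 tamoxifen libraries, labelled Ezh2 KO, come from cells that received 800 nM 4-hydroxy-tamoxifen over 96 h and were harvested 4 days after it. The 3 untreated libraries, labelled Ezh2 wild type, come from cells before the drug. Both groups derive from floxed cells. The deposited columns name the untreated libraries Ezh2flfl and the tamoxifen libraries Ezh2dd, read here as the floxed and the deleted genotype. All grew on gelatin with serum, serum replacement and leukaemia inhibitory factor. The labels name no vehicle for the untreated cells and no Cre driver, so effects of the drug, of the time in culture and of the deletion cannot be told apart. It is not stated whether replicates were separate cultures, and p-values then measure the spread between these libraries, which may be technical.

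PRC2 methylates lysine 27 of histone H3 and keeps developmental genes silent in embryonic stem cells. Its core of Ezh2 or Ezh1, Suz12, Eed and Rbbp4 or Rbbp7 assembles with either of 2 sets of accessory proteins. In PRC2.1 a Polycomb-like protein (Mtf2, Phf1 or Phf19) binds CpG-rich DNA and, through a Tudor domain, methylated lysine 36 of histone H3. Epop, or the Pali1 protein made from the Lcor locus, joins it there. In PRC2.2 Jarid2, a Jumonji-family protein without demethylase activity, and Aebp2, a zinc-finger protein, contact chromatin that PRC1 has marked with ubiquitin on histone H2A.

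The starts of these genes are shown because CpG-rich DNA is what the Polycomb-like subunits bind, and because Aebp2, the member with the largest difference between the groups, has the start with the fewest CpGs among them. RefSeq promoters on GRCm38.p6 were found for 6 of the 7 genes, and the 250 bases before each start were searched for CG, which reads the same on both strands. Over all 32851 promoters of the table the median was 6 CpGs. The Lcor start held 45, which 0.405% of all promoters reached, and the Phf19 start held 31 (5.19%). The first listed starts of Jarid2 and Mtf2 and the start of Phf1 held 23 each (13.3%), and the second start of Jarid2 held 22. The second start of Mtf2 held 2, which 81.2% of all promoters reached, so a start with few CpGs was not particular to Aebp2. Aebp2 has 3 listed starts with 1, 14 and 3 CpGs. The sequences below run 5′ to 3′ on the plus strand, with each CpG in capitals; they lie at chr6:140622413-140622662 and chr6:140624659-140624908 for Aebp2 and at chr19:41482432-41482681 for Lcor.
Aebp2 first start: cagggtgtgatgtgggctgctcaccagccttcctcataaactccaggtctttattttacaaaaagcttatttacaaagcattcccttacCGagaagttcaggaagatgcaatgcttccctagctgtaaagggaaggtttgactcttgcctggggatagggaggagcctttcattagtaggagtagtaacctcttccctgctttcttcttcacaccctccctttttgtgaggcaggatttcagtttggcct
Aebp2 second start: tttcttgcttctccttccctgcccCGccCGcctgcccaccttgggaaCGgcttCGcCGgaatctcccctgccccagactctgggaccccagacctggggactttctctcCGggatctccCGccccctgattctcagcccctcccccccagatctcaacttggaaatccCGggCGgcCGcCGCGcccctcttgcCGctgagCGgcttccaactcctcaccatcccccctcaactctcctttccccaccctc
Lcor start: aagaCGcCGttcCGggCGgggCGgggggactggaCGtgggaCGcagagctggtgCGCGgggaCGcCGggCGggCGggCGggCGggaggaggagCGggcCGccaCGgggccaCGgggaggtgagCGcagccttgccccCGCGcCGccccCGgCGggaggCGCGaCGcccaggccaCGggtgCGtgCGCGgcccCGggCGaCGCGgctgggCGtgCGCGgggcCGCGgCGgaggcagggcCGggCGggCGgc
Which start was used in these cells was not tested, and the comparison says nothing of what binds there.

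The table gives a normalized value per gene and library, and each value could be solved for the whole number of reads behind it (recovered reads, described with the processing). Libraries held between 2334448 and 5689666 recovered reads. Ezh2 had values of 2258, 2559 and 2609 in the tamoxifen libraries, against 4165, 3620 and 3483 in the untreated libraries, so its mRNA was still measured at 65.9% of the untreated mean. That difference was not called (log2 fold change -0.60 ± 0.12 SE, limma adjusted p 0.195). Of 10 stem cell markers none was called by limma; Tfcp2l1 (0.70) and Nanog (0.57) were above the untreated values in all tamoxifen libraries and Zfp42 (-0.26) below them, while Pou5f1 stood at -0.13. The summed value of the 10 markers was 83017 to 86844 in tamoxifen and 72578 to 102856 in untreated libraries. The 12 primitive endoderm markers summed to 42279 to 49042 in tamoxifen and 20746 to 24654 in untreated libraries, with Lamb1, Col4a1 and Col4a2 among them. All 12 were above 0, with a median of 1.25, and 0 were called (smallest limma adjusted p 0.086). For 11 all tamoxifen values were above all untreated ones (7.92% of all tested genes). By limma 10 had an unadjusted p under 0.05 (9.34% of all tested genes). The 8 tested of 10 fibroblast markers summed to 26326 to 34153 in tamoxifen and 19301 to 20316 in untreated libraries, most of it from Fn1, with means of 20436 in tamoxifen and 12099 in untreated libraries, which other cell types express too. Of these 8 markers 6 were above 0 and 2 below, with a median of 0.73, and 0 were called. The groups did not overlap for 3 of them, all higher, namely Fn1, S100a6 (0.83) and Postn, which had only 0 to 2 reads per library. That held for 7.92% of all tested genes in that direction. Col3a1, on 0 to 5 reads, and Thy1 were the 2 below 0, and Lum had 0 reads throughout. The part of these other markers in the differences below was not tested. In bulk RNA, fewer cells of a type and less RNA per cell cannot be told apart.

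None of the 7 accessory subunit genes was called between the groups. The limma test on log2(value + 1), adjusted over 17427 genes, called 0 members at an adjusted p under 0.05, where 0.195% of all tested genes were called (0.126% higher and 0.0689% lower). At an unadjusted p under 0.05 there was 1 member (Aebp2), against 9.34% of all tested genes. Among the 11843 genes that averaged 10 reads or more, the test called 0 of 6 members and 0.127% of all genes, and on recovered reads it called 0 members and 0.0172% of all genes. The median log2 fold change (tamoxifen minus untreated) was 0.14 over the members and -0.0037 over all genes tested, with 5 members above 0 and 2 below. For Aebp2 and Epop, both higher, the values of the groups did not overlap, which held for 7.92% of all tested genes in that direction and for 9.49% of those that averaged 10 reads or more (15.3% of tested genes in either direction). No member had all its tamoxifen values below its untreated ones, against 7.33% of all tested genes. The plot of fold changes for the members and the core sets these intervals side by side.

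**Figure D1:**
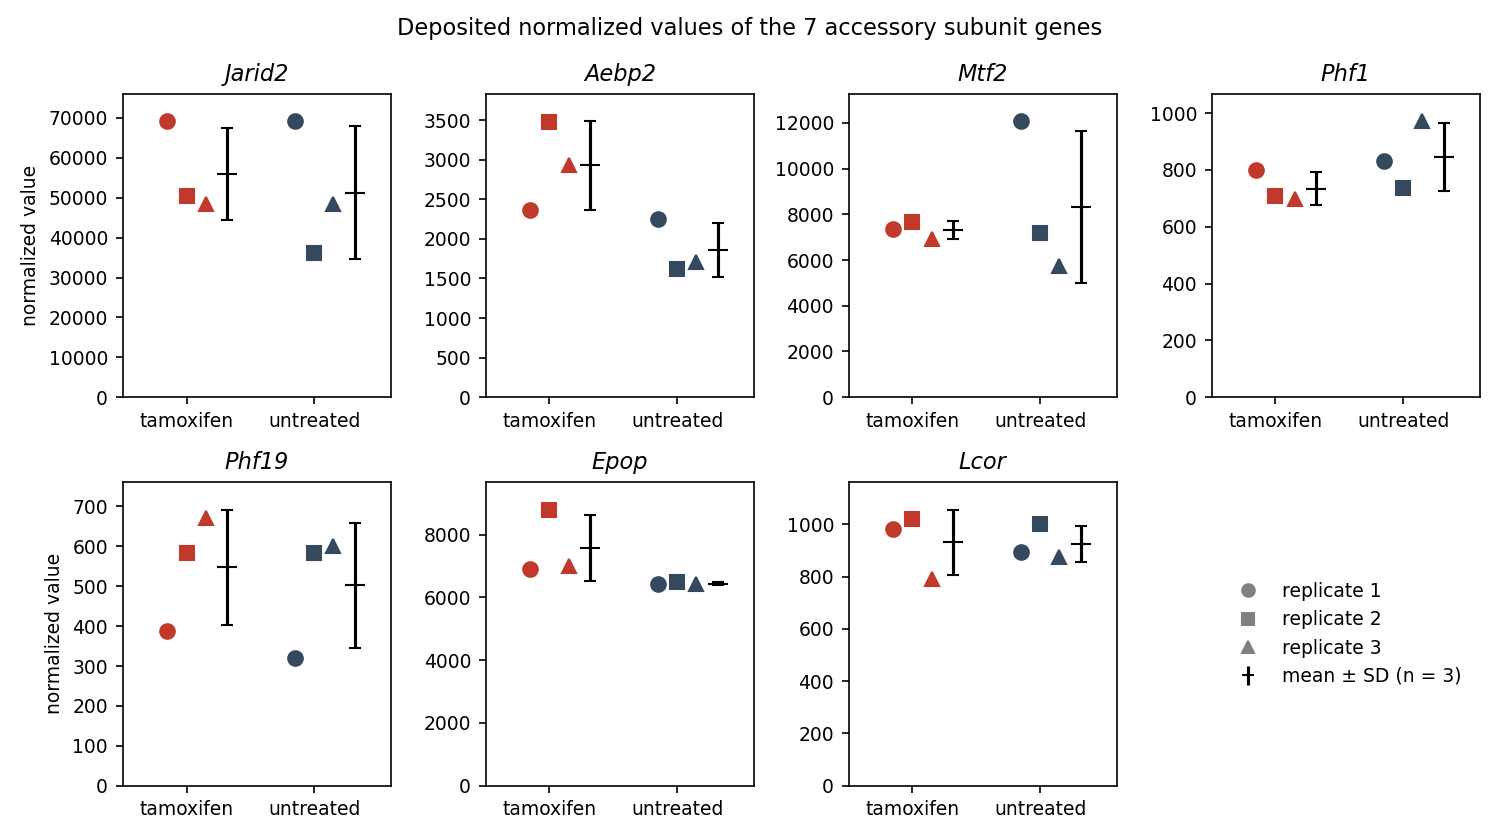
Deposited normalized value (vertical axis, from 0) of each accessory subunit gene in the 3 tamoxifen libraries (left) and the 3 untreated libraries (right); symbols mark replicates and black bars the mean ± SD (n = 3). Only for Aebp2 and Epop do all tamoxifen points lie above all untreated points.

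Aebp2, whose product binds nucleosomes and stabilises PRC2.2, showed the largest difference among the members. Its values were 2365, 3484 and 2939 in the tamoxifen libraries, against 2248, 1626 and 1712 in the untreated libraries. Every tamoxifen value was above every untreated value, though tamoxifen replicate 1 and untreated replicate 1 lay close together. The means were 2929 ± 559 and 1862 ± 337 (SD, n = 3 each), a log2 fold change of 0.65 ± 0.19 (SE) with a 95% interval from 0.18 to 1.12. Aebp2 was not called (limma adjusted p 0.407, or 0.257 among genes with at least 10 reads), and the two-sided exact permutation p was 0.1, which is as small as 3 libraries a group can give. Of the 11843 genes with at least 10 reads, 89.1% had a smaller absolute change.

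The separation of Aebp2 held in the deposited values but not in its scaled reads. In reads scaled to the same library total (RPM) it stood at 68.8, 138 and 110 in the tamoxifen libraries, against 97.5, 60.3 and 42.6 in the untreated libraries, and the groups then overlapped. With library totals scaled by trimmed means they overlapped as well (78.0, 107 and 92.1 against 86.0, 63.3 and 62.6), and the log2 fold change on reads was 0.38 with a 95% interval from -0.07 to 0.84 (limma adjusted p 0.670). A ratio taken within each library needs no scaling. Per kilobase of exon, Aebp2 reads were 42.2%, 44.5% and 43.5% of Suz12 reads in the tamoxifen libraries, against 26.0%, 30.6% and 37.2% in the untreated libraries. The groups did not overlap in that ratio, which was chosen after the values were seen and was not tested. They overlapped in the same ratio for Mtf2 (means of 137% in tamoxifen and 141% in untreated libraries) and Epop (135% and 108%). How many of all genes separate in a ratio to Suz12 was not counted. The gene (ENSMUSG00000030232) lies on chromosome 6 from 140622663 to 140678472 on GRCm38, overlaps no other annotated gene, and shares 107 of its 9864 transcript words of 31 bases with the processed pseudogene Gm14240.

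Jarid2, which recruits and stimulates PRC2, had by far the most reads of the members. Its values were 69211, 50312 and 48444 in the tamoxifen libraries, against 69211, 36124 and 48444 in the untreated libraries. The groups overlapped, and replicates 1 and 3 had the same value to the nearest unit in both groups. The reads behind these values differed, at 40528 (tamoxifen) and 24908 (untreated) for replicate 1 and 26456 and 24337 for replicate 3. Equal deposited values are therefore not equal reads. The log2 fold change was 0.16 ± 0.29 (SE, 95% interval -0.54 to 0.85, limma adjusted p 0.868). On reads the interval widened to -1.91 to 2.12 around 0.11 (limma adjusted p 0.978).

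The reads of Jarid2 spread far more between libraries than its values did. It took 1.05%, 0.441% and 0.518% of the reads in the tamoxifen libraries, against 0.646%, 0.177% and 0.909% in the untreated libraries, and the lowest share had an exact binomial 95% interval from 0.173% to 0.180%. Such intervals cover counting error only. These reads placed Jarid2 between rank 10 and rank 15 of all genes in 5 libraries and at rank 59 in untreated replicate 2. The highest share was 5.96 times the lowest, while the highest value was 1.92 times the lowest.

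The Jarid2 reads moved with those of Cdk8, which encodes a kinase of the Mediator complex and is not known as a PRC2 subunit. Jarid2 had 22.2%, 21.7% and 21.5% as many reads as Cdk8 in the tamoxifen libraries, against 23.1%, 21.5% and 22.1% in the untreated libraries. Of 11736 genes with at least 10 reads on average and reads in all 6 libraries, Cdk8 had the steadiest ratio to Jarid2 (SD of the log2 ratio 0.040), followed by Sspn (0.136), Kcnip1 (0.140) and Tmtc2 (0.172). The same SD was 1.19 for Aebp2, the PRC2.2 partner, and 1.25 for Suz12. This ratio and its genes were chosen after the values were seen. No word of 31 bases was shared between the annotated transcripts of Jarid2 and Cdk8 on either strand. Their introns were not compared, so bases shared there would have been missed.

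Jarid2 (ENSMUSG00000038518) spans 192 kb of chromosome 13, from 44729474 to 44921643 on GRCm38, with 9.72 kb of exon. A small nucleolar RNA gene, Gm22213, lies within an intron on the opposite strand (44838165 to 44838283). The sources used here do not say whether reads were counted over exons or the whole span, and whether the Jarid2 reads come from its mRNA was not tested. Its level and its fold change are therefore given as those of the table's Jarid2 entry.

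**Figure D2:**
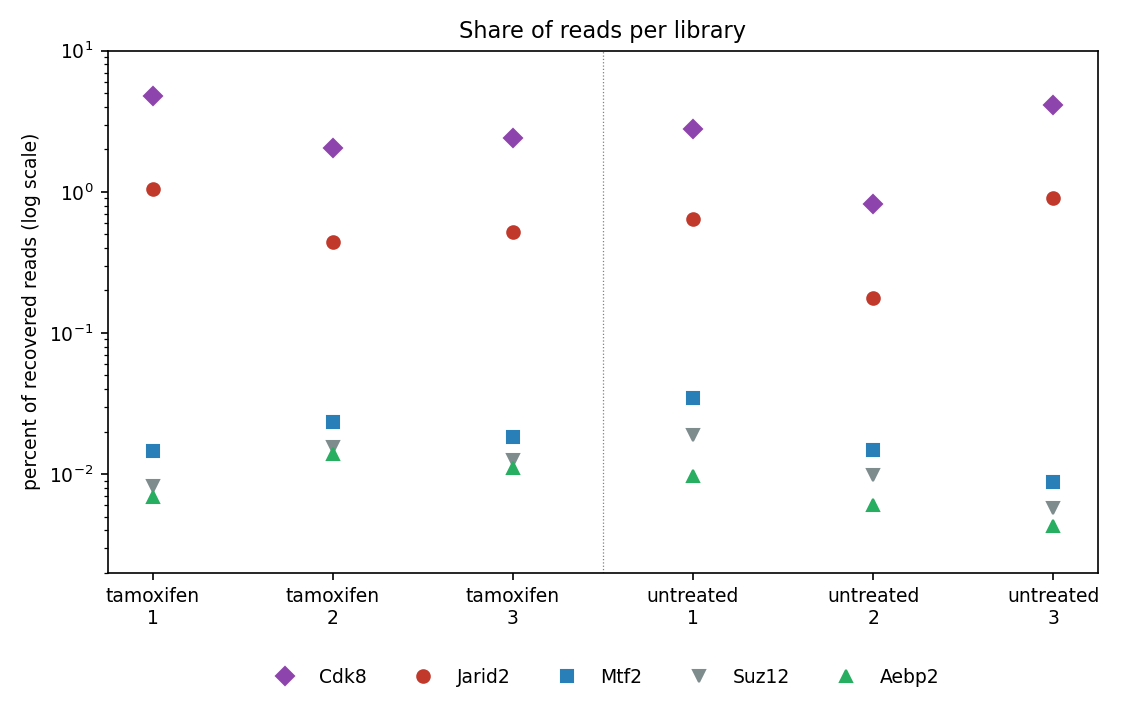
Percent of each library's recovered reads (vertical log axis) assigned to Cdk8, Jarid2, Mtf2, Suz12 and Aebp2 in the 3 tamoxifen libraries (left of the dotted line) and the 3 untreated libraries (right). Jarid2 and Cdk8 keep a near-constant distance, at 21.5% to 23.1% of Cdk8, while both are lowest in untreated replicate 2.

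Of the Polycomb-like genes, Mtf2 dominated. Per kilobase of exon it made up 93.0%, 93.8% and 90.4% of the summed Mtf2, Phf1 and Phf19 reads in the tamoxifen libraries, against 96.9%, 90.3% and 86.6% in the untreated libraries. Phf19 followed with 4.52%, 4.84% and 7.71% in tamoxifen, against 1.81%, 7.29% and 8.67% in untreated libraries. Phf1 took 1.40% to 2.45% in tamoxifen and 1.31% to 4.78% in untreated libraries. The groups overlapped for all 3 shares.

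Mtf2, the main Polycomb-like subunit of embryonic stem cells, had values of 7366, 7668 and 6910 in the tamoxifen libraries, against 12077, 7162 and 5721 in the untreated libraries. The tamoxifen values lay within the range of the untreated ones, whose spread came mostly from untreated replicate 1. The log2 fold change was -0.11 ± 0.27 (SE, 95% interval -0.77 to 0.54, limma adjusted p 0.910), and without untreated replicate 1 it turned to 0.19 (limma adjusted p 0.567). Mtf2 (ENSMUSG00000029267, chromosome 5, 108065674 to 108109004) shares 395 exonic bases with Tmed5 on the opposite strand, whose log2 fold change was -0.06. The libraries were made with a directional kit, but the strand setting of the counting is not stated, so reads of the shared bases cannot be assigned with certainty. It also shares 40 of 6026 transcript words of 31 bases with the pseudogene Gm49301.

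Phf19 values were 389, 583 and 672 in the tamoxifen libraries, against 321, 584 and 601 in the untreated libraries, on 21 to 71 reads. Replicate 1 was the lowest in both groups, and the groups overlapped. The log2 fold change was 0.14 ± 0.33 (SE, 95% interval -0.66 to 0.95, limma adjusted p 0.906). It turned to -0.15 without untreated replicate 1 and to -0.02 without tamoxifen replicate 3. Phf19 (ENSMUSG00000026873) occupies 34893757 to 34914026 of chromosome 2, minus strand.

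Phf1 rested on 9, 5 and 12 reads in the tamoxifen libraries, against 11, 14 and 8 in the untreated libraries. The corresponding values were 800, 707 and 696 in tamoxifen, against 830, 735 and 972 in untreated libraries, so a single Phf1 read stood for 52.5 to 141 units of value, whereas a Jarid2 read stood for 1.71 to 4.89. The values of the groups overlapped, with a log2 fold change of -0.20 ± 0.15 (SE, 95% interval -0.57 to 0.18, limma adjusted p 0.750). In RPM every tamoxifen library was lower (2.34, 2.14 and 2.35 against 2.85, 2.46 and 2.99 in untreated libraries), which held for 1.25% of all tested genes, but the groups overlapped once totals were scaled by trimmed means. Phf1 (ENSMUSG00000024193, chromosome 17, 26933052 to 26937908) shares 1370 exonic bases with Cuta on the opposite strand, which had 20 to 58 reads, so its low count is uncertain.

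Epop, which links PRC2.1 to Elongin B and C and is typical of embryonic stem cells, had values of 6907, 8795 and 7006 in the tamoxifen libraries, against 6420, 6480 and 6417 in the untreated libraries. All tamoxifen values were above all untreated values, and the untreated libraries agreed within an SD of 35.7 while the tamoxifen libraries had an SD of 1063. The means were 7569 in tamoxifen and 6439 in untreated libraries, a log2 fold change of 0.22 ± 0.12 (SE, 95% interval -0.07 to 0.52, limma adjusted p 0.634). Without tamoxifen replicate 2, the highest library, it was 0.11. The two-sided exact permutation test again gave its smallest p, 0.1.

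The close agreement of the untreated Epop values was not seen in the reads. In RPM Epop stood at 51.2, 106 and 75.5 in the tamoxifen libraries, against 45.7, 63.8 and 35.8 in the untreated libraries, and the groups overlapped. The fold change on reads was 0.35 (95% interval -0.15 to 0.86, limma adjusted p 0.721). Epop (ENSMUSG00000043439, chromosome 11, 97627389 to 97629702, minus strand) is a single exon gene with the most GC-rich transcript of the members (66.9% GC), while Mtf2 has the least (38.2%).

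Lcor, which encodes a nuclear receptor corepressor as well as Pali1, had values of 983, 1022 and 789 in the tamoxifen libraries, against 896, 1003 and 875 in the untreated libraries. The groups overlapped, and the log2 fold change of 0.0040 ± 0.15 (SE) had a 95% interval from -0.36 to 0.36 (limma adjusted p 1.0). Its sign turned under 6 of 14 alternatives and it stood at 0.19 on reads. The values count the locus (ENSMUSG00000025019, chromosome 19, 41482637 to 41562261), so the Pali1 and corepressor transcripts cannot be told apart.

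**Figure D3:**
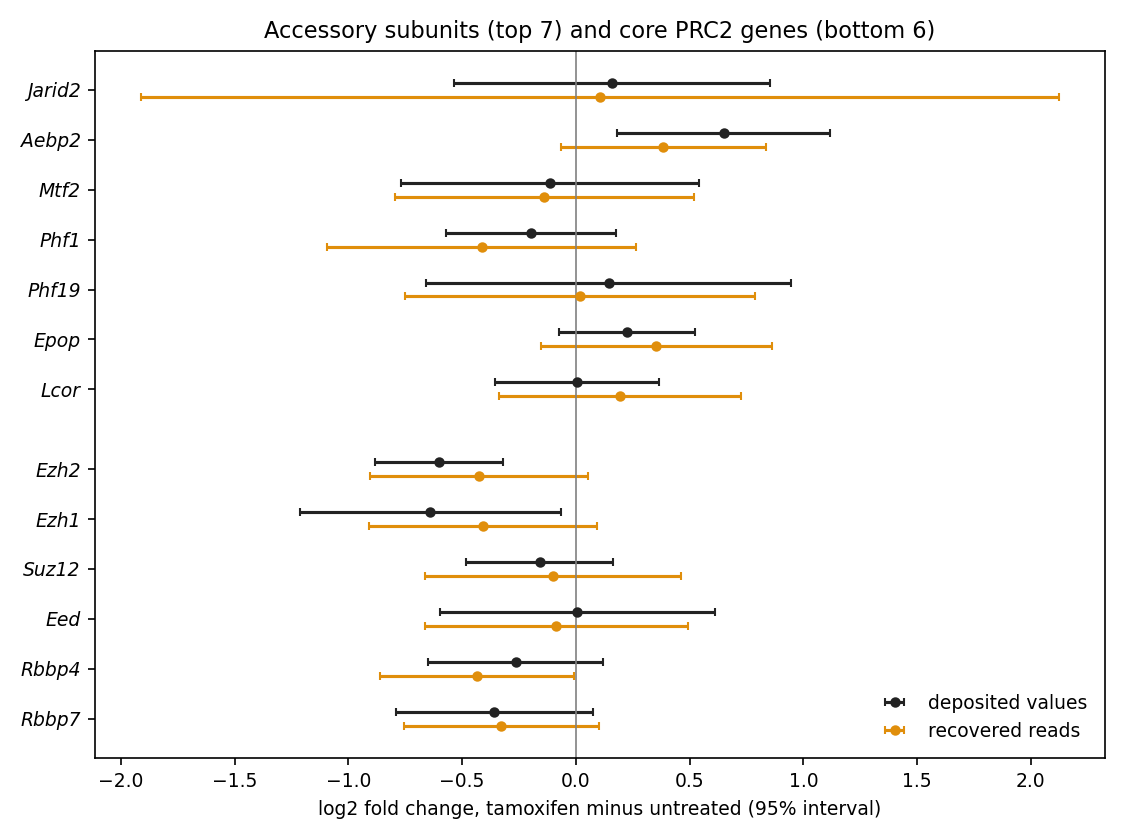
Log2 fold change, tamoxifen minus untreated (horizontal axis), of the 7 accessory subunit genes and the 6 core PRC2 genes with 95% intervals from limma (3 libraries per group), on deposited values (black) and on recovered reads (orange). Among the accessory genes only the Aebp2 interval on deposited values (0.18 to 1.12) leaves out 0.

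Levels can be compared between genes as RPM per kilobase of exon (RPKM, on recovered reads), since the deposited values weigh reads of each gene differently. Leaving out Jarid2, at 642 RPKM on average over the 6 libraries, Mtf2 (33.5) and Epop (27.2) were highest, followed by Aebp2 (8.75), Lcor (5.36), Phf19 (1.82) and Phf1 (0.723). On exon length each gene was above the next in all 6 libraries except Mtf2 and Epop, of which Mtf2 was the higher in 3 of 6. This order rests on reads having been counted over exons, which is not stated. Per kilobase of the whole gene span the means were 27.2 for Epop, 4.40 for Mtf2, 1.54 for Aebp2, 0.532 for Lcor, 0.519 for Phf1 and 0.452 for Phf19, which puts Epop well above Mtf2 and Phf1 above Phf19. Among the core genes Suz12 averaged 24.5 ± 7.51 RPKM in tamoxifen and 23.2 ± 13.5 RPKM in untreated libraries (SD, n = 3 each).

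The mix of the 6 genes other than Jarid2 set untreated replicate 1 apart. There Mtf2 made up 60.9% and Epop 19.8% of their summed reads per kilobase. In the tamoxifen libraries Mtf2 made up 36.8% to 41.8% and Epop 36.4% to 40.8%, and in untreated replicates 2 and 3 the lower Mtf2 share was 38.5% and Epop made up 41.6% and 38.4%. The share of Aebp2 was 11.5%, 12.5% and 13.1% in the tamoxifen libraries, against 9.96%, 9.22% and 10.7% in the untreated libraries. These did not overlap per kilobase of exon, whereas the Mtf2, Epop and Lcor shares did. The Aebp2 share was seen before it was singled out and was not tested. Its separation rests on exon length. Shares on the whole gene span, where Epop weighs more, were not compared. How often other genes would separate in such a share was not counted.

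**Figure D4:**
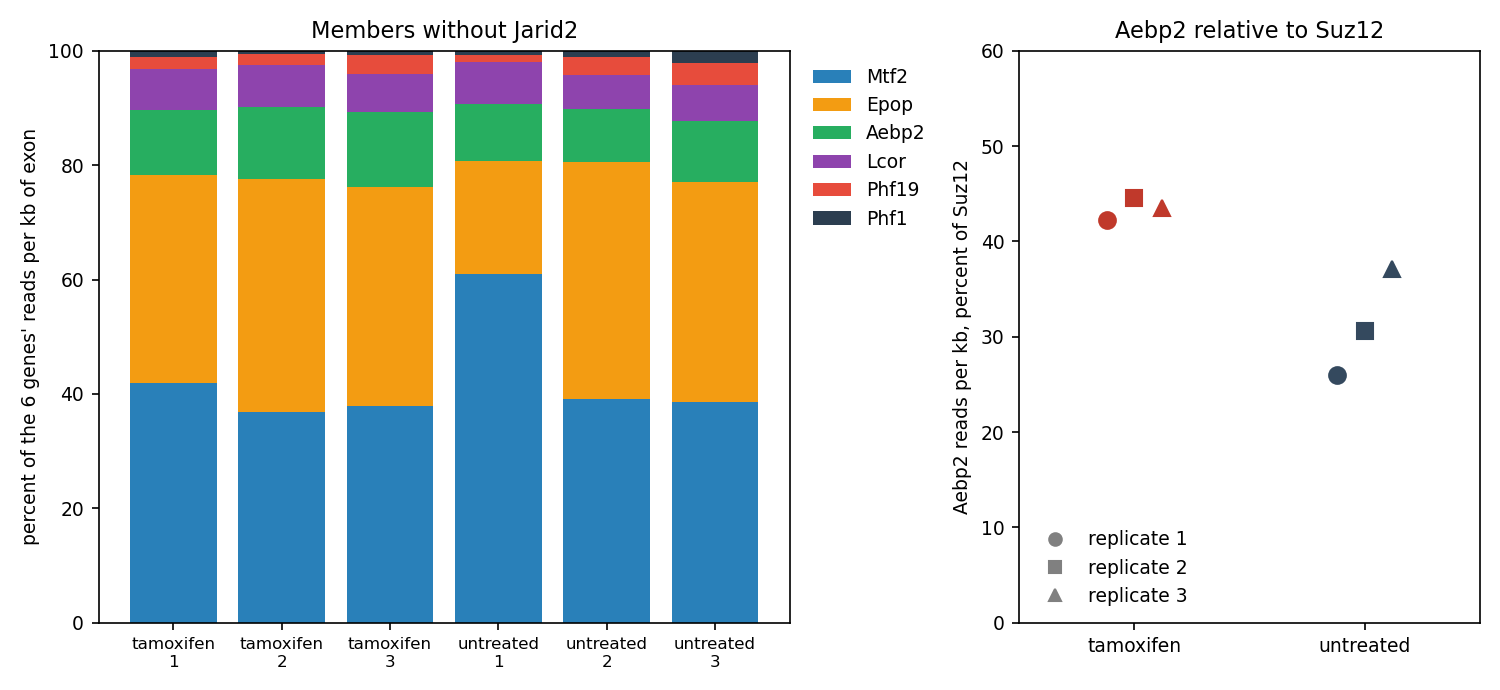
Left, percent of the summed reads per kilobase of exon taken by each of 6 accessory subunit genes in every library, tamoxifen first; right, Aebp2 reads per kilobase as percent of Suz12 (vertical axis from 0) by group. Mtf2 takes 60.9% in untreated replicate 1, and Aebp2 lies at 42.2% to 44.5% of Suz12 in tamoxifen and 26.0% to 37.2% in untreated libraries.

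Genes with the most similar profile were sought by the root mean square difference between log2 values centred on their mean over the 6 libraries, among 11123 genes. The nearest were Prdm11 (0.072) and Dyrk2 (0.080) for Jarid2, Dynll2 (0.073) and Lrrc8c (0.075) for Aebp2, and Wapl (0.056) and Mtmr7 (0.061) for Mtf2. For Phf1 they were Fndc4 (0.045) and Catsperz (0.046), and for Phf19 they were Cpeb3 (0.092) and Sys1 (0.107). Epop lay nearest to Tns3 (0.010) and Ubfd1 (0.045), and Lcor to Qrich1 (0.030) and Pex16 (0.037). No core PRC2 gene was among them. With 6 libraries and this many genes, close profiles are a description only.

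In the same comparison the core PRC2 genes had a lower median than the accessory genes, with single genes of both sets interleaved. Of 6 core genes 5 were below 0, with a median of -0.31, and 0 were called by limma, with 2 at an unadjusted p under 0.05. Beside Ezh2, its paralogue Ezh1 had values of 283, 224 and 351 in the tamoxifen libraries, against 429, 390 and 506 in the untreated libraries (log2 fold change -0.64, limma adjusted p 0.509). The histone-binding subunit Rbbp7 stood at -0.36 and Rbbp4 at -0.26, while Suz12, which holds the complex together and carries the accessory subunits, stood at -0.16 and Eed, the reader of methylated lysine 27, at 0.0063. For 3 of the 6 (Ezh2, Ezh1 and Rbbp7) all tamoxifen values were below all untreated ones, as for 7.33% of all tested genes. The difference between the core and accessory genes was not tested.

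Known partners or paralogues of the accessory subunits were not called either. Of 14 tested genes 9 were below 0, with a median of -0.12 and 0 at an unadjusted p under 0.05 by limma. The Epop partners Elob and Eloc stood at -0.17 and 0.54, the Lcor paralogue Lcorl at -0.47, and Kdm5b, a histone demethylase with a Jumonji domain like that of Jarid2, at -0.49 (limma adjusted p 0.592 to 0.653). Of 23 genes of PRC1 and of histone H2A ubiquitin, the mark that PRC2.2 reads, 14 were above 0, with a median of 0.06. None was called by limma and 4 had an unadjusted p under 0.05, namely Pcgf3 (0.51), Bmi1 (0.70), Pcgf6 (-0.43) and Phc2 (0.64), with adjusted p between 0.219 and 0.478. Of 10 enzymes that write or erase methylation on lysines 27 and 36 of histone H3, 6 were below 0, with a median of -0.11, and 0 were called by limma, with 2 at an unadjusted p under 0.05. The demethylase genes Kdm6a (-0.42), Kdm4a (-0.32) and Uty (-0.40) and the methyltransferase gene Ash1l (-0.39) had the smallest p among them, with limma adjusted p between 0.461 and 0.660. The largest fold change of the list was that of the demethylase gene Kdm6b, in the other direction (0.45, limma adjusted p 0.772). On reads Kdm6a stood at -0.09 and Ash1l at -0.05.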

How the data were processed

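Total RNA depleted of ribosomal RNA was sequenced from 6 libraries with a directional kit, per the labels' protocols. The deposited table holds a normalized signal per Ensembl gene that the authors made. Per the submitters' processing notes the tools were TopHat2, bedtools and DESeq2, on the build mm9; annotation, strand setting and counting rule are not given in the sources used here. All 100305 non-zero values can be written as 9.73 × k × (m + 0.1) / (k + 0.1) for whole k and m, with a relative misfit of at most 5.11e-15, and k was taken as the reads. Exactly 1 solution existed for 98.8%; 1085 others followed the gene's other libraries and 106 the ratio of m to k nearest 1. The median log2 value per library lay between 8.96 and 9.03, and the value that 1 read stands for differs between genes and libraries. For larger k a value is set almost wholly by m. Near-equal values recur across genes and libraries, such as 7785 for Esrrb in untreated replicate 1 and for Nsd1 in tamoxifen replicate 1. A normalization by rank would give such values, but how m was set is not stated.

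Values were tested as log2(value + 1) with limma 3.58.1 (R 4.3.3, moderated test with an expression trend, Benjamini-Hochberg adjustment), keeping genes that average 10 or more in value; the added 1 shrinks changes of low genes. In a simulation, reads drawn with known changes were multiplied by each gene's real value per read in each library. On those values this test recovered few known changes, and most genes it called were not among them. The test on genes that average 10 reads or more recovered most, and both are given. Real values spread less than such products can, so the simulation cannot show how either test does on the deposited values. Whether either test could find changes of the size seen for the members was not tested. Reads were tested as log2(RPM + 1), RPM being reads scaled to a common library total, with totals scaled by trimmed means. Python 3.11.15, numpy 2.4.6, pandas 2.3.3, scipy 1.17.1 and matplotlib 3.10.9 did the rest. Symbols and coordinates are from GENCODE vM21 on GRCm38, not the authors' build. Named genes were the members, the core and the 2 nearest profiles per member. From each list up to 4 genes of smallest p were added (mean value of at least 50, at least 10 reads). Col3a1, Thy1, Lum, Postn, Kdm6b, Esrrb and Nsd1 were named after their values were seen. The members and lists were chosen with earlier results of these data known.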

Additional observations from a re-analysis of the deposited data

How the results depend on the processing

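No member was called by limma under any of the 14 alternatives (13 for Phf1, which had under 10 reads on average), nor was any gene of the core, PRC1, partner or histone methylation lists. Over all genes, 34 were called as deposited, 52 with a pseudocount of 10 and 52 without a filter, 15 among genes averaging 10 reads or more, 3 by testing recovered reads, 0 with a replicate block and 66 to 103 with 1 library left out. Whether same-numbered libraries were paired is not stated. Their deviations from the group means correlated at -0.0072, -0.05 and 0.0048, against -0.082 to 0.086 for libraries of different number. With 3 libraries per group these correlations cannot show whether the libraries were paired.

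Aebp2 (0.38 to 0.80), Epop (0.11 to 0.35) and Phf1 (-0.41 to -0.09) kept their direction in all alternatives run. Many of these could hardly change it. The filters and the replicate block leave a fold change as it is. Quantile normalization, equal medians and the pseudocounts barely moved it (Aebp2 at 0.65, 0.64, 0.65 and 0.65). Directions were thus tried mainly by recovered reads and by leaving out libraries. With 1 library left out, Jarid2 ran from -0.068 (without untreated replicate 2) to 0.40, Mtf2 from -0.35 to 0.19, Phf19 from -0.15 to 0.37 and Lcor from -0.068 to 0.12. Lcor also turned to -0.010 with quantile normalization and -0.0020 with libraries set to the same median. The causes of these turns were not tested. Phf1 and Phf19 rest on the fewest reads of the members.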
